A study of Mus musculus with 868 samples.

Results

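The collagen genes described here were all rows of the count tables whose symbol has the form Col, a number, a and a number, such as Col1a1. There were 44 of them among 24421 gene symbols, and all 44 were found in the GENCODE M21 annotation of the mouse genome (mm10). The study measured messenger RNA by 3′ end sequencing in 24 tissues of C57BL/6N mice under 15 drugs and 3 control conditions, in 868 libraries, with 2 libraries per group and tissue but 4 each for sofosbuvir in jejunum and asenapine in brain. The drug labels were APAP (with a time of 2 hours), Sofosbuvir, Alendronate, Risedronate, Asenapine, Lurasidone, Olanzapine, Aripiprazole, Cisplatin, Clozapine, Dox (2 mg per mL), EMPA (oral, 2 weeks), Lenalidomide, Repatha and Teriparatide. Controls were CMCTween (0.5% CMC with 0.25% Tween80), Sucrose (5%) and WT(No treated), called WT below. All groups shared the C57BL/6N strain, and the labels name no engineered allele and give no age or sex of the mice and no other dose or time. Drugs were compared only inside 3 sets of libraries with like expression profiles. Set A held APAP, Sofosbuvir, Sucrose and WT, set B held Alendronate, Risedronate, Asenapine, Lurasidone and Olanzapine and had no control, and set C held the other 8 drugs and CMCTween. The sets rest on expression values and not on the labels.

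Collagens are secreted or membrane proteins made of chains wound into a triple helix, and each gene codes for 1 kind of chain. Fibrillar collagens build the cables of bone, dermis, tendon and vessel walls, type IV collagens build the sheet-like network of basement membranes, and type VI collagens form beaded filaments between cells and fibrils. FACIT collagens attach to the surface of fibrils, and transmembrane and anchoring collagens fasten epithelia to the tissue below. After synthesis the chains are hydroxylated, folded with the help of the chaperone Serpinh1, trimmed by propeptide-cleaving enzymes and crosslinked by lysyl oxidases. Levels are given as CPM, a gene's count divided by its library's column sum and scaled to the usual common depth. A 3′ library yields a tag at the end of each transcript, so levels were not divided by gene length.

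Total counts per library ran from 451154 to 12811780 with a median of 877592, and the 48 WT libraries held 2875950 to 12811780. Defining markers of the labelled tissue were highest in that tissue in WT for 3 of 3 markers in 20 tissues and for 2 of 3 in aorta, brain, jejunum and spleen. In 10 of 868 libraries the summed tissue markers lay under 0.1 of the tissue's median, namely 6 of jejunum, the 2 cisplatin libraries of thymus, 1 olanzapine library of stomach and 1 CMCTween library of ileum (replicate 4). That ileum library touches the cisplatin comparison below, and one of the jejunum libraries is a WT library (replicate 4).

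Of the network-forming genes, the 6 type IV genes lie in 3 head-to-head pairs, and the sequences between their starts are shown because these pairs also had like levels over tissues. Col4a4 and Col4a3 on chromosome 1 have 71 bases between their starts, Col4a6 and Col4a5 on the X chromosome 1308 bases, and the annotated Col4a1 and Col4a2 on chromosome 8 overlap by 22 bases on opposite strands. The stretches below are from RefSeq (build GRCm38.p6), read 5′ to 3′ on the strand of the gene named first or named alone. They are the whole interval between Col4a4 and Col4a3 (chr1:82586850-82586920, minus strand), the 120 bases before the start of Col4a6 (chrX:141474077-141474196, minus strand) and the 120 bases before the start of Col4a5 (chrX:141475265-141475384, plus strand).
between Col4a4 and Col4a3: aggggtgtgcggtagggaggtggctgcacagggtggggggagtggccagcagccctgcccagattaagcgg
before Col4a6: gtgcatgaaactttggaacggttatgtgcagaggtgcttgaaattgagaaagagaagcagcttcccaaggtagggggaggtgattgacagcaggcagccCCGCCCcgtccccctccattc
before Col4a5: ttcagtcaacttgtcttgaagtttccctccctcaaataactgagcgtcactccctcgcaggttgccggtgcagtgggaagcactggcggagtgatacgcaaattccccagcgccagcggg
Capitals mark a GC box, GGGCGG read as CCGCCC on this strand, at bases 100 to 105 of the stretch before Col4a6. The TATA box letters TATAAA were absent from both strands of the other stretches, as were CCAAT (the CCAAT box) and also GGGCGG. Over the 250 bases before the starts of 32851 RefSeq promoters and on both strands, CCAAT occurred in 33.8%, GGGCGG in 32.7% and TATAAA in 12.4%. Promoter entries were found for 35 of the 44 collagen genes, in 38 entries, of which 13 held CCAAT, 22 GGGCGG and 5 TATAAA.

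In untreated mice bone and skin held by far the most collagen RNA. The 44 genes summed to 36826 and 37794 CPM in the 2 skull libraries (3.68% and 3.78% of all counts) and to 25717 and 24120.1 CPM in skin (2.57% and 2.41%). White fat (WAT) followed with 2859 and 2707 CPM, aorta with 2542 and 2509 and lung with 2108 and 1872. At the low end were thymus with 185 and 183 CPM, bone marrow with 191 and 174 and pancreas with 85.4 and 94.3. Libraries of a tissue lay close together beside these gaps, except brain, with 252 and 133 CPM.

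**Figure D1:**
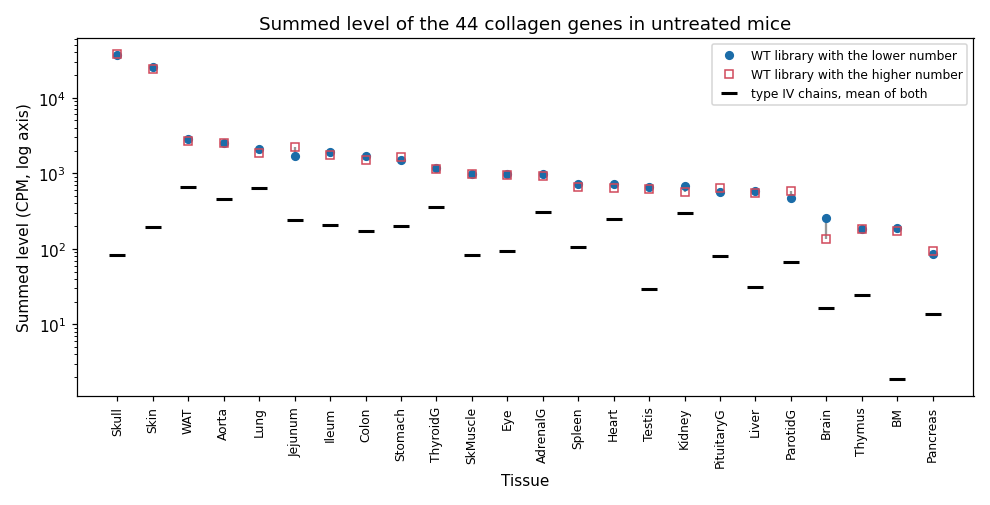
Summed level of the 44 collagen genes in each WT library (CPM, log axis), by tissue in falling order, with circles and squares for the 2 libraries of a tissue and bars for the mean sum of the 6 type IV genes. Skull and skin lie at 24120 to 37794 CPM and every other tissue at or below 2859 CPM, while type IV sums are highest in WAT, lung and aorta.

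The make-up of that RNA differed by tissue. Type I chains took 89.1% of the collagen sum in skull, 80.7% in skin, 69.8% in bone marrow and 55.3% in skeletal muscle (SkMuscle). Type IV chains took 47.5% in kidney, 36.8% in heart, 32.4% in lung and 32.4% in adrenal gland. FACIT collagens took 70.8% in testis, and the multiplexin Col18a1 with Col15a1 took 66.7% in liver. The leading gene was Col1a2 in 16 tissues, Col4a1 in WAT, lung, adrenal gland and heart, Col4a4 in kidney, Col18a1 in liver, Col16a1 in testis and Col7a1 in pancreas.

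Of the 44 genes, 38 reached 10 CPM in at least 1 WT tissue, 20 reached 100 CPM and 6 stayed below 10 CPM everywhere. For 36 of 44 both libraries of the top tissue lay above every library of every other tissue. Skull was the top tissue of 14 genes, WAT of 6, eye of 5 and testis of 4. Col10a1, a collagen of hypertrophic cartilage, had 30 counts over all 48 WT libraries and did not pass the filter on low counts, so 43 genes were tested. In the edgeR fit of each WT tissue against the mean of the other 23, 382 of the collagen tests were called higher and 193 lower, beside 44.0% called in either direction over all genes. Stomach had the most, 30 of 43 genes higher (beside 27.0% of all genes), followed by skin with 26 (27.5%), skeletal muscle with 25 (27.2%), skull with 24 (26.0%), eye with 23 (34.3%) and colon with 22 (25.6%). Aorta (23.2%), ileum (25.9%) and jejunum (27.2%) had 21 each, thyroid gland 20 (23.1%), lung 19 (28.6%) and WAT 18 (21.6%). The other 12 tissues had 2 to 16, among them testis with 16 (40.2%) and kidney with 11 (27.0%).

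**Figure D2:**
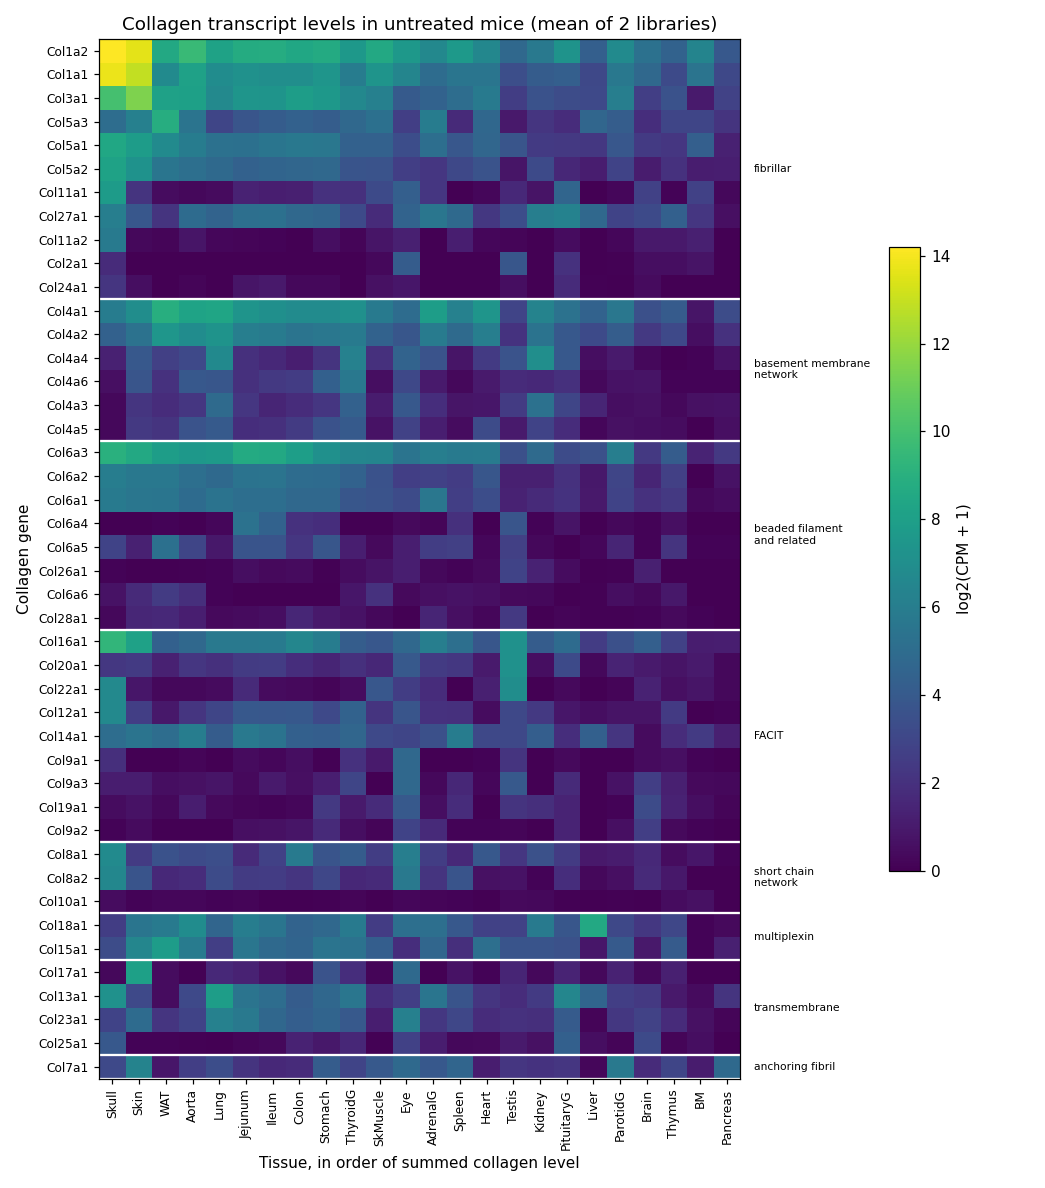
Mean level of each collagen gene (rows, grouped by structural class) in each WT tissue (columns, in order of summed collagen level), as log2(CPM + 1) with n = 2 libraries per tissue. The brightest cells are Col1a1, Col1a2 and Col3a1 in skull and skin.

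Among fibrillar collagens, the type I chain Col1a2 (chromosome 6, 4504814 to 4541544) had 18135 and 19605 CPM in skull and 12835 and 11918 CPM in skin. Its partner chain Col1a1 (chromosome 11, 94936224 to 94953042) had 14479 and 14239 CPM in skull, 7703 and 7762 in skin and 285 and 271 in aorta, the next tissue. Its skull level was above the mean of the other tissues by a log2 of 7.51 ± 0.19 (SE, edgeR, adjusted p = 7.17e-22). Col3a1 (chromosome 1, 45311538 to 45349706), the type III chain of extensible tissues, had its top level in skin instead, 3130.2 and 2456 CPM, against 1187 and 882 in skull and 306 and 245 in WAT. The type V chains Col5a1 and Col5a2, which set fibril diameter, peaked in skull, at 355 and 342 CPM for Col5a1 and 295 and 288 CPM for Col5a2. The remaining type V chain, Col5a3, peaked in WAT at 420.4 and 509.6 CPM, with 73.1 and 71.9 in skin, and no library of another tissue reached its WAT level.

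Collagens known from cartilage had lower levels. Col11a1, a type XI chain, had 185 and 263 CPM in skull, Col11a2 56.7 and 57.4, and both were above all libraries of other tissues. Col2a1, the main chain of cartilage and of the vitreous body, peaked in eye at 16.04 and 17.7 CPM, with 12.5 and 13.1 CPM in testis and a median of 0 CPM over tissue means. The type IX chains Col9a1 and Col9a3, which coat type II fibrils, likewise peaked in eye, at 25.5 and 28.4 CPM for Col9a1 and 27.4 and 26.1 CPM for Col9a3. Col9a3 overlaps exons of Tcfl5 on the opposite strand, and as the strand setting of the counting is not given, its reads are uncertain. Summed chondrocyte markers were 39.5 to 47.3 CPM in skull and 57.4 to 80.7 CPM in eye, against 1988 to 2449 CPM for osteoblast markers in skull. The chondrocyte list was not particular to these tissues, with 725 to 743 CPM in CMCTween thyroid gland and 404 to 534 in CMCTween colon. Its member Sox9 alone averaged 740 CPM in thyroid gland with risedronate. Whether the sums reflect cartilage was not tested. Col27a1, a fibrillar collagen, was spread over tissues, with 66.1 and 86.3 CPM in pituitary gland, 54.7 and 76.8 in kidney and 67.2 and 64.1 in skull, ranges that overlap.

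Among basement membrane collagens, Col4a1 (chromosome 8, 11198423 to 11312826), a chain of nearly all basement membranes, had 459 and 491 CPM in WAT, 329 and 321 in lung and 308 and 299 in aorta. Its partner Col4a2 had 171 and 177 CPM in WAT, 162 and 148 in lung and 117 and 117 in aorta. The chains of the mature kidney filter, Col4a3, Col4a4 and Col4a5, did not peak together. Col4a4 (chromosome 1, 82448423 to 82586849) had 144 and 111 CPM in kidney and 115 and 99.5 in lung, which overlap, and 70.2 and 78.3 in thyroid gland. Col4a3 (chromosome 1, 82586921 to 82722059) had 43.9 and 31.5 CPM in kidney and 33.5 and 24.7 in lung, which also overlap. Col4a5 was at 15.4 and 15.3 CPM in thyroid gland and 14.6 and 16.1 in lung, and Col4a6 at 43.3 and 57.01 CPM in thyroid gland, above every other tissue.

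The filament collagens Col6a1, Col6a2 and Col6a3 were broad and had their highest means in skull, where Col6a3 had 567 and 466 CPM. Jejunum came next for Col6a3 with 339.7 and 470.0 CPM, and its higher value overlaps skull. Later members of the family were restricted: Col6a4 had 36.3 and 42.1 CPM in jejunum and 20.2 and 22.3 in ileum, while Col6a5 had 51.5 and 23.5 CPM in WAT. The higher jejunum values of Col6a3 and Col6a4 are from the WT library with few jejunum markers.

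FACIT collagens had their top levels in several tissues. Col16a1 (chromosome 4, 130047840 to 130099283) had 654 and 656 CPM in skull, 289 and 263 in skin and 149.6 and 144 in testis. Col20a1 and Col22a1 peaked in testis, at 169 and 121 CPM for Col20a1 and 132 and 117 CPM for Col22a1. Col22a1, known from tissue junctions of muscle and tendon, also had 95.1 and 107 CPM in skull and 14.6 and 12.9 in skeletal muscle. Col12a1 peaked in skull at 87.8 and 118 CPM. Col14a1 (chromosome 15, 55307750 to 55520803) had 60.4 and 67.9 CPM in aorta and 68.7 and 55.5 in spleen, with no gap between them.

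By CPM, genes of epithelial anchorage were led by skin. Col17a1 (chromosome 19, 47646344 to 47692094), the transmembrane collagen of hemidesmosomes, had 253 and 289 CPM in skin, against 30.0 and 26.1 in eye and 7.91 and 14.6 in stomach. Col7a1 (chromosome 9, 108953586 to 108984875), the collagen of anchoring fibrils, had 85.7 and 76.8 CPM in skin and 54.5 and 48.5 in parotid gland. The edgeR fit, which scales libraries by TMM, ranked Col7a1 otherwise. Its log2 difference from the other tissues was 4.91 ± 0.16 in pancreas, 4.12 ± 0.12 in parotid gland and 3.69 ± 0.11 in skin. Of the other transmembrane collagens, Col13a1 (chromosome 10, 61838236 to 61979108), known from the neuromuscular junction, had 279 and 190.3 CPM in lung and 144 and 144 in skull, and Col23a1 76.3 and 75.04 in lung and 73.1 and 69.0 in eye. The multiplexins, which lie at basement membrane zones, separated: Col18a1, the precursor of endostatin, had 371 and 375 CPM in liver and Col15a1 228 and 239 in WAT. The short chain collagens Col8a1 and Col8a2, known from Descemet's membrane of the cornea, had their highest values in skull. Col8a1 had 110.1 and 114 CPM in skull and 65.8 and 68.7 in eye, and Col8a2 91.6 and 96.6 in skull and 55.0 and 51.8 in eye.

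Several genes that lie side by side or whose chains share a molecule had like profiles over the 24 WT tissues. Likeness was measured as Pearson's r of log2(CPM + 1) over tissue means and is a description, since tissues differ in depth and cell make-up for all genes. It was 0.99 for Col4a1 with Col4a2, 0.93 for Col4a3 with Col4a4 and 0.88 for Col4a5 with Col4a6, and each of these 6 genes was most like its head-to-head neighbour. The type I chains had 0.98, Col3a1 with its tail-to-tail neighbour Col5a2 0.95, and Col6a2 with Col6a3 0.95. Neighbours were not always alike: Col9a1 with Col19a1 had 0.58 and Col6a5 with Col6a6 0.29, where Col6a6 reached 5 CPM in 0 of the 24 tissues. Chains of 1 molecule also differed, at 0.43 for Col9a1 with Col9a2 and 0.74 for Col11a1 with Col11a2. Col4a5 had 0.73 with Col4a3 and 0.73 with Col4a4. Col1a2 with Col3a1, chains of different molecules, had 0.88. Over all 946 pairs of collagen genes the median r was 0.25, with quartiles of 0.019 and 0.48. The ratio of paired levels was not constant. Over the 24 tissues, Col1a1 was 0.121 to 0.761 of Col1a2 in CPM, and where Col4a4 had at least 5 CPM, Col4a3 was 0.235 to 0.639 of it. The tissue order held in the other controls. Of the 38 genes with at least 10 CPM somewhere in WT, 31 had the same top tissue in Sucrose and 31 in CMCTween, and the median Spearman's rho of a gene's 24 tissue means with WT was 0.919 and 0.923.

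Drug comparisons then asked which collagen genes moved, with each drug set against its own library set: set A drugs against WT and Sucrose (4 libraries), set C drugs against CMCTween (2 libraries) and set B drugs against the other 4 drugs, which is not a control. Each drug had 473 collagen tests over 24 tissues. The set A drugs had 100 collagen calls (beside 6.30% of all tests of that set), the set B drugs 83 (beside 2.59%) and the set C drugs 258 (beside 2.15%). In these bulk samples fewer cells of a type and less RNA per cell cannot be told apart. The comparisons of 1 set share their control libraries, so counts of drugs in a tissue are not independent.

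Cisplatin, a platinum drug that crosslinks DNA, had the most collagen calls, 50 higher and 92 lower, and 44 and 84 of these also passed with the same sign against all other groups of the set. That is 30.0% of its collagen tests, beside 11.3% of all its tests. APAP had 9 higher and 74 lower (17.5% of its collagen tests, beside 10.2% of all), with 5 and 70 in both comparisons. Olanzapine had 28 higher and 1 lower (6.13%, beside 3.50% of all). Teriparatide had 19 and 3 (beside 0.726% of all), Dox 4 and 17 (1.07%), EMPA 15 and 3 (0.764%), Clozapine 16 and 4 (0.644%), Aripiprazole 13 and 6 (1.49%) and Repatha 9 and 7 (1.03%). Risedronate had 16 and 4 (1.92%), Alendronate 1 and 13 (0.780%), Lurasidone 6 and 5 (1.78%), Asenapine 6 and 3 (4.95%) and Sofosbuvir 14 and 3 (2.40%). The vehicle Sucrose against WT had 7 higher and 18 lower (6.44%), a share of its collagen tests (5.29%) under that of all genes. Fewer of these set A and set C calls also passed with the same sign against all other groups of the set. The higher and lower calls left were 12 and 0 for Teriparatide, 3 and 13 for Dox, and 11 and 0 for EMPA. Clozapine kept 8 and 0, Aripiprazole 8 and 1, Repatha 2 and 3, Sofosbuvir 11 and 1 and Sucrose 1 and 2. Lenalidomide had no collagen call by edgeR, beside 0.117% of all its tests. At an unadjusted p under 0.05 it had 20 higher and 21 lower, and DESeq2 called 2 higher and 0 lower. The share of all genes at these settings is not given here. These counts therefore cannot tell whether collagens moved more than other genes.

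**Figure D3:**
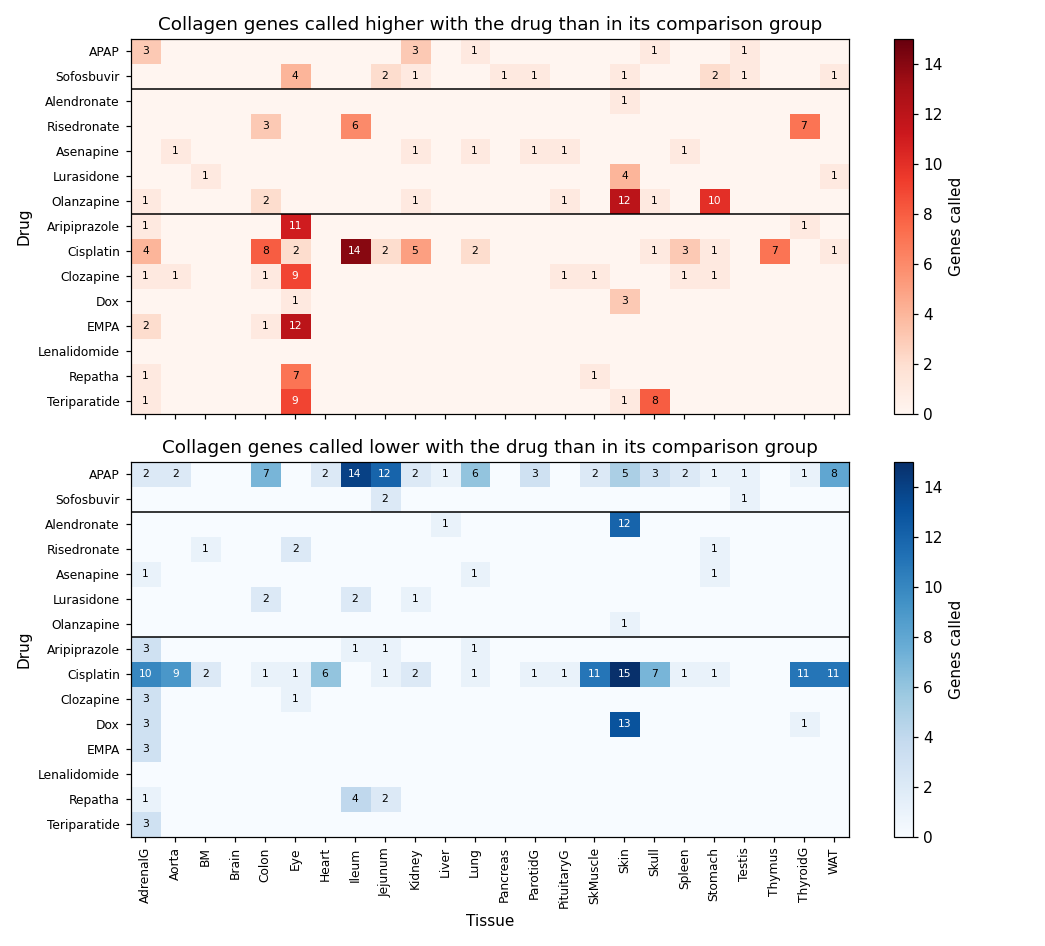
Number of collagen genes called higher (upper panel) and lower (lower panel) with each drug (rows) in each tissue (columns), at an adjusted p under 0.05; lines part sets A, B and C, and blank cells are 0. Cisplatin and APAP fill the lower panel across many tissues, skin holds calls for 8 of the 15 drugs, and the eye calls of set C all share 2 CMCTween libraries.

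Over all 360 drug comparisons the genes called most often were Col1a2 (15 higher and 20 lower), Col3a1 (12 and 21), Col6a3 (12 and 20), Col5a1 (15 and 15) and Col15a1 (3 and 22). A pair of basement membrane genes leaned the other way, Col4a1 with 18 higher and 5 lower and Col4a2 with 14 and 4. Col10a1 and Col28a1 were never tested, and 7 tested genes (Col24a1, Col25a1, Col26a1, Col2a1, Col4a6, Col9a1 and Col9a3) were never called, at 15 to 90 tests each. Col4a2 and those 7 were singled out after their counts were seen.

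In skin the fibrillar collagens were lower with cisplatin. Col1a1 had 504 and 323 CPM in the cisplatin libraries, against 7821 and 20279 CPM in the CMCTween libraries, which is -5.06 ± 0.75 on the log2 fold change scale (SE, n = 2 against 2, edgeR adjusted p = 0.000143). The CMCTween libraries differed more than 2-fold from each other, and both lay far above the cisplatin pair. Col3a1 had 220.4 and 131 CPM with cisplatin, against 3349 and 7504 CPM in CMCTween (-4.93 ± 0.67). Col1a2 had 804 and 610.5 CPM, against 7759.8 and 18689.8 (-4.21 ± 0.71). In all, 15 of 27 tested collagen genes fell and none rose, beside 7.57% of all genes called lower and 7.57% called higher, and the median log2 was -1.43 over the 27, against -0.01 over all genes.

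The fall reached the filament collagens, with Col6a2 at -3.41 ± 0.52 and Col6a3 at -2.90 ± 0.41, and the multiplexins Col15a1 (-3.14 ± 0.50) and Col18a1 (-1.95 ± 0.34). It was smaller for Col16a1, singled out after its values were seen, at 67.3 and 80.8 CPM against 161 and 172 (-1.17 ± 0.20). Collagens of the epidermal junction did not pass: Col17a1 had 252 and 389 CPM, against 206 and 326 in CMCTween (0.27 ± 0.24, adjusted p = 0.5). Its sign turned without CMCTween replicate 3 or cisplatin replicate 3. Col4a1, of basement membranes, was at -0.50 ± 0.22 (adjusted p = 0.13). Of the 15 calls, 10 stayed in each of the 4 fits that left 1 library out, among them Col1a1, Col1a2, Col3a1, Col5a1 and the 3 type VI genes. The other 5, Col5a2, Col5a3, Col12a1, Col14a1 and Col4a2, were lost without at least 1 library, and the count was 11 without cisplatin replicate 1 or replicate 3.

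Genes that handle collagen moved in part with it. The calcium-binding matrix protein Sparc changed by -3.17 ± 0.59 (adjusted p = 0.00116), the small proteoglycan Lum by -2.74 ± 0.40, the procollagen processing enhancer Pcolce by -2.56 ± 0.53 and the chaperone Serpinh1 by -2.51 ± 0.54. Of 9 fibril-binding proteoglycans and matrix partners 3 fell, of 10 hydroxylation and glycosylation genes 2 fell, of 5 propeptide cleavage genes 2 fell, and of 4 crosslinking genes 1 rose and 1 fell. Of 6 folding and export genes 1 rose and 2 fell, and of 5 TGF-beta and matrix inducers 1 rose and 1 fell. Of 9 basement membrane partners 2 fell, and 0 of 6 collagen receptors and 0 of 4 collagenases and gelatinases were called. Markers of other cell types moved as well. Hair follicle matrix keratins fell for 5 of 7 genes, with sums of 1.39 to 141 CPM with cisplatin and 102 to 15746 CPM in CMCTween, ranges that overlap. Skeletal muscle markers summed to 22161 to 23587 CPM, against 2322 to 10017, with 1 of 5 called higher. Fibroblast markers did not drop as a group, with 1 of 7 called lower and sums of 5511 to 5726 CPM, against 3142 to 9184. Endothelial markers rose for 2 of 5 (165 to 173 CPM, against 63.8 to 71.1, with no overlap) and smooth muscle and pericyte markers for 1 of 7 (990.4 to 1070.4 CPM, against 351 to 661). Basal keratinocyte markers, of the cells that make Col17a1, fell for 2 of 5 (3332 to 4545 CPM, against 4068 to 6655) and leukocyte markers for 1 of 3 (58.5 to 103 CPM, against 107 to 256). The part of these cell types in the collagen result was not tested.

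Skin collagen levels also varied widely among groups that were not called. Over the 18 set C skin libraries the collagen sum ran from 2015 to 79317 CPM with a median of 42329.7 CPM. The 4 lowest were those of cisplatin (2396 and 2015 CPM) and Dox (8750.0 and 8572), and the next was 1 EMPA library with 16144 CPM, below the lower CMCTween library (20519 CPM). In set A the WT skin libraries had 25717 and 24120.1 CPM and the Sucrose ones 9337 and 7023, so 2 control groups of 1 set differed more than 2-fold.

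**Figure D4:**
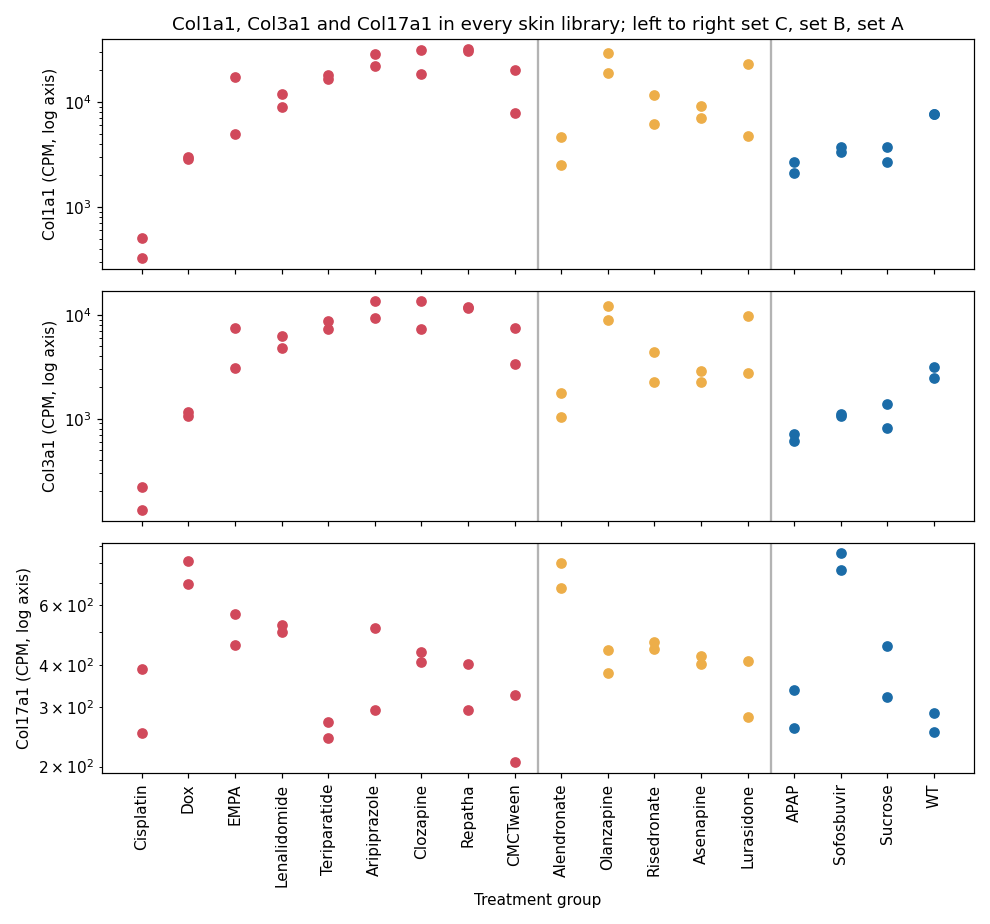
Levels of Col1a1, Col3a1 and Col17a1 (CPM, log axes) in every skin library, 2 points per treatment group, with set C in red, set B in orange and set A in blue and the control groups of each set at its right end. Cisplatin points lie lowest for Col1a1 and Col3a1, Dox points are next within set C, and for Col17a1 the Dox, alendronate and sofosbuvir points lie highest.

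Dox changed skin collagens in both directions. Col17a1, of hemidesmosomes, had 697 and 814 CPM with Dox, against 206 and 326 CPM in CMCTween (1.501 ± 0.24, SE, n = 2 against 2, edgeR adjusted p = 0.000252). Col7a1, of anchoring fibrils, had 51.1 and 65.6 CPM, against 15.5 and 23.4 (1.56 ± 0.27), and both Dox libraries lay above both controls for each gene. The transmembrane Col23a1 also rose, at 1.34 ± 0.30. Of 27 tested genes 3 rose and 13 fell, beside 3.87% and 6.19% of all genes, with a median log2 of -1.22, against -0.02 over all genes.

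The largest fall was that of the FACIT collagen Col14a1, with 1.07 and 2.62 CPM under Dox, against 47.4 and 65.7 in CMCTween (-4.94 ± 0.87). These Dox levels are near the floor, as 1 count is 2.22 CPM in the study's shallowest library, so the size of the fall is uncertain. Col4a1, of basement membranes, changed by -1.84 ± 0.24 on the log2 scale and Col6a3 by -1.87 ± 0.37. The type I and III chains passed with less certainty: Col1a1 had 2987 and 2865 CPM, against 7821 and 20279 (-2.26 ± 0.66, adjusted p = 0.0363), and lost its call without Dox replicate 3 (adjusted p = 0.169), Dox replicate 4 (0.186) or CMCTween replicate 4 (0.194). Calls that stayed with any library left out were Col17a1, Col7a1, Col14a1, Col4a1, Col4a2, Col5a2 and Col6a3, 7 of 16. Of the 16 calls, 8 were made without Dox replicate 3, 9 without Dox replicate 4, 8 without CMCTween replicate 4 and 15 without CMCTween replicate 3.

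Partner genes that fell with Dox were led by the crosslinking enzyme Lox (-3.81 ± 0.82), the adhesive protein Fn1 (-3.23 ± 0.39), the basement membrane linker Nid1 (-2.90 ± 0.38) and the collagen-degrading protease Ctsk (-2.43 ± 0.45). Crosslinking genes fell for 3 of 4, collagenases and gelatinases for 3 of 4, propeptide cleavage genes for 3 of 5, fibril-binding partners for 6 of 9, and basement membrane partners for 5 of 9 with 1 higher. Of the other partner lists, among 5 TGF-beta and matrix inducers 2 rose and none fell, among 6 collagen receptors 1 rose and 1 fell, and among 10 hydroxylation and glycosylation genes 1 fell. Of 6 folding and export genes edgeR called 0, with 1 at an unadjusted p under 0.05, the chaperone Serpinh1 (-1.42 ± 0.48, adjusted p = 0.0665). Several cell type lists moved in the same skin. All 7 hair follicle matrix genes fell, with sums of 6.39 to 14.4 CPM with Dox and 102 to 15746 in CMCTween. All 5 adipocyte genes fell (38.1 to 76.7 CPM, against 842 to 2473), as did all 5 skeletal muscle genes (453 to 723 CPM, against 2322 to 10017) and 5 of 7 fibroblast genes (1958 to 2574 CPM, against 3142 to 9184). All 5 basal keratinocyte genes rose (10356 to 12174 CPM, against 4068 to 6655). The part of these cell types in the collagen result was not tested.

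A direct contrast of cisplatin with Dox in skin, added after the data had been seen, separated them: of 27 genes 3 were higher and 11 lower with cisplatin, beside 20.6% of all genes. Col1a1 was lower with cisplatin by a log2 difference of -2.81 ± 0.68 (adjusted p = 0.00618), Col7a1 by -1.82 ± 0.31 and Col17a1 by -1.23 ± 0.24. Higher with cisplatin were Col4a1 (1.35 ± 0.25), Col4a2 (0.84 ± 0.24) and Col4a4 (2.26 ± 0.70), all of type IV.

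In ileum the type I and III chains were higher with cisplatin. Col1a2 had 1770.3 and 1636 CPM with cisplatin, against 383 and 547 CPM in CMCTween (1.80 ± 0.21, SE, n = 2 against 2, edgeR adjusted p = 1.67e-07). Col1a1 had 824 and 795 CPM, against 262 and 279 (adjusted p = 7.25e-10), and Col3a1 1261 and 1150.0, against 509.5 and 543 (1.12 ± 0.17). The cisplatin pair lay above the CMCTween pair for each, and the libraries of a pair were close. Of 23 tested genes 14 rose and none fell, beside 14.7% and 14.5% of all genes, with a median log2 of 1.12, against -0.02 over all genes.

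Risers in ileum came from most classes. Basement membrane Col4a1 had 548 and 566 CPM, against 139.6 and 248 (1.45 ± 0.22), the multiplexin Col18a1 187 and 184, against 38.4 and 78.1 (1.58 ± 0.24), and the FACIT Col16a1 90.7 and 107, against 24.4 and 33.3 (1.69 ± 0.29). The largest fold change was that of Col6a5, 32.6 and 29.9 CPM against 8.14 and 6.14 (2.06 ± 0.44). Of the genes that did not pass, Col14a1 had 105 and 92.6 CPM, against 59.3 and 111, with the CMCTween pair on both sides of the cisplatin pair. All but Col27a1 of the 14 kept their calls with any library left out. Of the ileum markers, the bile acid-binding gene Fabp6 was at 16.3 and 15.7 CPM with cisplatin, and at 5351 and 1.75 CPM in CMCTween replicates 3 and 4. The others were not low with cisplatin. Slc10a2 had 97.9 and 99.7 CPM, against 68.6 and 0.877, and Reg3b 3976 and 3778 CPM, against 5712 and 59.7. CMCTween replicate 4 is the library with few ileum markers. Without that library 13 of the 14 genes were called, and Col6a4 in addition, with Col1a1 at 1.42 (adjusted p = 1.98e-07) and Col4a1 at 1.79, while Col27a1 missed (adjusted p = 0.0533). Against all other groups of the set, 22 of 23 genes were called higher.

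Partner genes rose in the cisplatin ileum, among them the crosslinking enzyme Lox (2.78 ± 0.61), the protease Ctsk (2.47 ± 0.57), the folding helper Fkbp10 (2.45 ± 0.53), the propeptide-cleaving Adamts2 (2.34 ± 0.56) and the collagen uptake receptor Mrc2 (2.172 ± 0.64). All 3 crosslinking genes, all 3 propeptide cleavage genes, 6 of 7 fibril-binding partners, 7 of 9 basement membrane partners and 4 of 5 collagenases and gelatinases rose, and 6 of 11 hydroxylation and glycosylation genes rose with 1 lower. Of 6 folding and export genes 2 rose and 1 fell, and of 6 collagen receptors 4 rose. Fibroblast markers rose for 5 of 6 genes, with sums of 3228 to 3469.9 CPM with cisplatin and 881 to 1222 in CMCTween, and leukocyte markers for 6 of 6 (618 to 695 CPM, against 180.3 to 322). Endothelial markers rose for 1 of 5 (313 to 374 CPM, against 119 to 298) and smooth muscle and pericyte markers for 1 of 7 (4928 to 5294 CPM, against 3217 to 4164). The part of these cell types in the collagen result was not tested.

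The kidney, which cisplatin is known to harm, had another pattern. Col4a1 had 428 and 275 CPM with cisplatin, against 116 and 103 CPM in CMCTween (1.60 ± 0.16, SE, n = 2 against 2, edgeR adjusted p = 5.89e-13), and Col4a2 189 and 143, against 64.3 and 64.9 (1.29 ± 0.19). The chains of the filtration barrier went down: Col4a4 had 129 and 138 CPM, against 235 and 249 (-0.95 ± 0.15, adjusted p = 1.7e-07), and Col4a3 58.3 and 75.4, against 133 and 114 (-0.98 ± 0.23). For each of these 4 genes the cisplatin and CMCTween libraries did not overlap. Col4a5, whose chain joins those of Col4a3 and Col4a4 and which was singled out after its values were seen, was at 13.1 and 16.6 CPM, against 12.2 and 19.7, and did not pass (-0.20 ± 0.46, adjusted p = 0.812). In all 5 of 18 tested genes rose and 2 fell, beside 11.3% and 11.7% of all genes, with a median log2 of 0.81, against 0.00069 over all genes.

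The other risers were Col13a1, with 32.2 and 17.9 CPM against 3.33 and 2.32 (3.03 ± 0.62), Col27a1, with 299.7 and 514 against 134 and 136, and Col18a1, with 258 and 167 against 64.3 and 83.5 (1.46 ± 0.19). Fibrillar Col1a2 had 239 and 134 CPM, against 111 and 62.6, with both cisplatin libraries above both controls, and did not pass (1.04 ± 0.42, adjusted p = 0.0872). Of the 7 calls 6 stayed with any library left out, and Col4a3 missed without cisplatin replicate 1 (-0.79, adjusted p = 0.0514). Partners that rose included the receptor Mrc2 (1.85 ± 0.67), the proteoglycan Bgn (1.59 ± 0.18) and the basement membrane protein Agrn (1.54 ± 0.20). Of 10 basement membrane partners 2 rose, of 7 fibril-binding partners 3 and of 5 collagen receptors 3, and none of these lists had a member that fell. None of 5 podocyte markers was called, with sums of 224 to 243 CPM with cisplatin and 175 to 225 in CMCTween. Fibroblast markers rose for 2 of 3 genes (342 to 355 CPM, against 129.8 to 191.8) and the kidney's own tubular markers fell for 2 of 3 (1623 to 2653 CPM, against 5071 to 5280.3), and their part in the result was not tested.

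**Figure D5:**
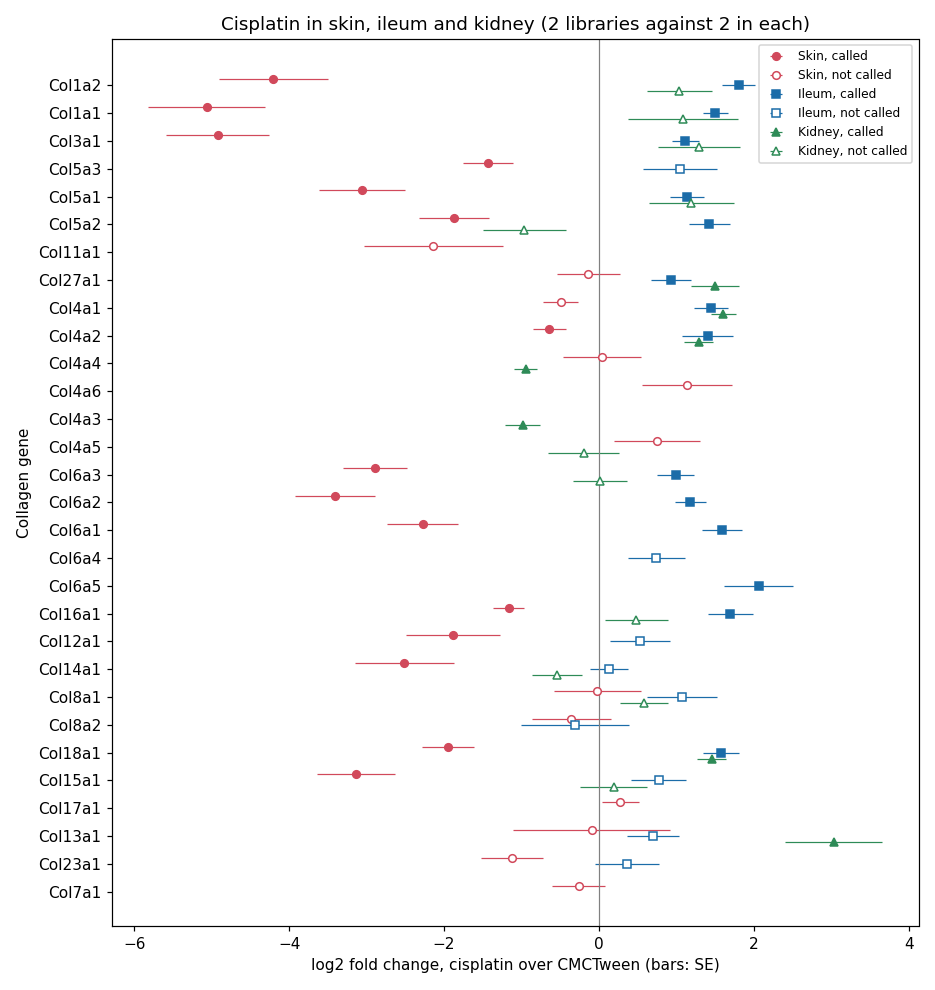
Log2 fold change of collagen genes with cisplatin over CMCTween (x axis) with its SE as bars, for skin (red circles), ileum (blue squares) and kidney (green triangles), n = 2 libraries against 2, filled where the adjusted p is under 0.05. Fibrillar genes such as Col1a1 (-5.06 in skin) lie left of 0 in skin and right of 0 in ileum, and Col4a1 and Col4a2 rise in ileum and kidney while Col4a3 and Col4a4 fall in kidney.

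Tests of the difference between tissues, added after the data had been seen, gave values for that gap. The cisplatin response in ileum was above that in skin for 16 of 28 genes and below it for none, beside 12.2% of all genes called either way. For Col1a1 the difference of log2 fold changes was 6.59 ± 0.67 (adjusted p = 2.22e-06). Between kidney and skin 14 of 27 genes differed, all higher in kidney (beside 13.5%), with Col4a1 at 2.14 ± 0.27 (adjusted p = 4.45e-07). Between ileum and skeletal muscle 16 of 26 differed, all higher in ileum (beside 20.2%). The tests were chosen after these same responses had been seen, so they are no separate support.

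Collagens were also lower with cisplatin in other tissues. In skeletal muscle 11 of 19 genes fell and none rose (beside 17.3% lower and 19.4% higher of all genes), with Col3a1 at 6.91 and 19.8 CPM, against 306 and 265 in CMCTween (-4.48 ± 0.75, edgeR adjusted p = 0.0001). In aorta 9 of 20 fell and none rose (1.88% lower and 2.31% higher), with Col1a1 at 80.9 and 74.9 CPM, against 762 and 859 (-3.25 ± 0.29). In thyroid gland 11 of 24 fell and none rose (2.18% lower and 1.64% higher), with Col3a1 at 17.6 and 17.6 CPM, against 767 and 322 (-5.27 ± 0.68). WAT had 11 of 22 lower and 1 higher (3.93% and 5.11%), led by Col15a1 at 11.0 and 7.10 CPM, against 208 and 254 (-4.62 ± 0.40). In every one of these examples both cisplatin libraries lay below both CMCTween libraries. At an unadjusted p under 0.05 collagens were higher in 0 tests in skeletal muscle, 0 in aorta and 3 in thyroid gland, and DESeq2 called 0 higher in each. Fibroblast markers fell for 7 of 7 genes in skeletal muscle, 7 of 7 in thyroid gland, 5 of 7 in aorta and 0 of 7 in WAT. In aorta leukocyte markers fell for 2 of 4 (14.99 to 25.9 CPM, against 122 to 174), aorta markers for 2 of 3 (2668 to 2719 CPM, against 6860.4 to 7595) and smooth muscle and pericyte markers for 1 of 7 (3356 to 3408 CPM, against 7722 to 8671). Muscle markers fell for 4 of 5 in skeletal muscle (89408 to 96905 CPM, against 120739 to 122402), leukocyte markers for 1 of 3 in thyroid gland (19.7 to 42.7 CPM, against 83.9 to 120.2), and in WAT endothelial markers rose for 2 of 5 (738 to 1031 CPM, against 380.3 to 439). The part of these cell types was not tested, and left-out libraries were not run for these 4 tissues.

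Type IV genes followed another course over tissues with cisplatin. Col4a1 rose in 7 of 23 tissues (colon, ileum, jejunum, kidney, lung, skull and thymus) and fell in heart, with the top log2 fold change of 1.80 ± 0.24 in thymus and the lowest of -0.68 ± 0.17 in heart. Both cisplatin thymus libraries are among those with few thymus markers, and 1 CMCTween jejunum library (replicate 4) is among those with few jejunum markers. Col1a1 rose in ileum only and fell in 6 of 24 tissues, and in skull it fell (-1.44 ± 0.28) where Col4a1 rose (0.99 ± 0.23). Col3a1 fell in 9 of 24 tissues and rose in ileum. In colon 8 of 20 genes rose (5.86% higher and 5.08% lower of all genes), while the short chain collagen Col8a1 fell, with 23.8 and 20.6 CPM against 98.0 and 153 (-2.55 ± 0.25).

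Teriparatide, a parathyroid hormone fragment given to build bone, went with higher levels of bone collagens in skull. Col1a1 had 56114 and 58529 CPM with teriparatide, against 29209 and 20473 CPM in CMCTween (SE of the log2 fold change 0.28, n = 2 against 2, edgeR adjusted p = 0.00698). The teriparatide pair was tight and lay above a wider CMCTween pair. Col1a2 had 50855 and 52095 CPM, against 26416 and 21101 (1.41 ± 0.28), Col5a2 712 and 719, against 398 and 295 (1.35 ± 0.33), and Col11a1 484 and 435, against 251 and 162 (1.44 ± 0.35). Col5a1, Col11a2, Col13a1 and Col4a1 also rose, which made 8 of 24 tested genes with none lower, beside 1.54% and 0.576% of all genes. The median log2 was 0.80, against -0.01 over all genes.

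Col3a1, of soft connective tissue, did not follow, with 1354 and 1735 CPM, against 2207 and 1910.0 (-0.11 ± 0.41, adjusted p = 0.94). Type VI Col6a3 had 301 and 393 CPM, against 179 and 155, and just missed (adjusted p = 0.0613). None of the 8 calls stayed with every library left out in turn: leaving out CMCTween replicate 4 left 0 of them, and 6 were left when CMCTween replicate 3 was dropped, where Col22a1 was called in addition. Of the teriparatide pair, dropping replicate 1 left 2 of the 8 calls and dropping replicate 2 left 1. The sign of Col3a1 turned when CMCTween replicate 3 or teriparatide replicate 1 was dropped. The log2 fold change of Col1a2 stayed between 1.19 and 1.68, with adjusted p of 0.0297 to 0.22. Partners that rose were the collagenase Mmp13 (1.51 ± 0.33), the propeptide cleavage genes Bmp1 (1.32 ± 0.27) and Pcolce (1.28 ± 0.24), the osteoclast protease Ctsk (1.27 ± 0.29), Sparc (1.23 ± 0.27) and the gelatinase Mmp9 (1.15 ± 0.14). Osteoblast and osteocyte markers rose for 6 of 8 genes, with sums of 5165 to 5348 CPM with teriparatide and 2864 to 3036 in CMCTween. Erythroid markers fell for 1 of 2 (572 to 755 CPM, against 1181 to 1273). Leukocyte markers rose for 1 of 5, while their sums were 738 to 849 CPM, against 854 to 855. Of 6 TGF-beta and matrix inducers 0 were called, with sums of 254 to 397 CPM, against 536 to 595. The part of these cell types in the collagen result was not tested.

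Collagens of the gut were lower with APAP, whose label gives a time of 2 hours. In ileum Col1a1 had 33.7 and 38.6 CPM with APAP, against 135, 123, 85.0 and 142 CPM in the WT and Sucrose libraries (-1.63 ± 0.20, SE, n = 2 against 4, edgeR adjusted p = 4.05e-08). Col1a2 had 125 and 88.1 CPM, against 452, 441, 222 and 311 (-1.59 ± 0.21), and Col3a1 56.6 and 36.2, against 171, 157, 112 and 140.1 (-1.53 ± 0.20). Both APAP libraries lay below all 4 controls for these genes. Of 23 tested genes 14 fell and none rose, beside 7.04% lower and 9.15% higher of all genes, with a median log2 of -1.07, against -0.05 over all genes. At an unadjusted p under 0.05 none rose either in ileum or jejunum with APAP or in skin with cisplatin, none fell in ileum with cisplatin or in skull with teriparatide, and DESeq2 likewise called 0 in these directions.

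Col6a3, of beaded filaments, had 159 and 107 CPM, against 432, 341, 253 and 333 (-1.23 ± 0.23), and it fell in 9 of 20 tissues with APAP, more than any other of the 7 genes followed over tissues. Type IV genes did not pass in ileum, with Col4a1 at 86.7 and 67.5 CPM, against 137, 130.0, 116 and 108 (adjusted p = 0.0867), while Col4a1 rose in adrenal gland, kidney, lung and skull and fell in jejunum (-1.24 ± 0.26), where Col4a2 fell as well (-1.01 ± 0.29). Only Col1a1, Col1a2, Col3a1 and Col6a3 kept their ileum calls with any library left out, and dropping APAP replicate 1 left 6 calls, against 7 when replicate 2 was dropped. Jejunum had 12 of 22 genes lower and none higher (9.41% lower and 12.1% higher of all genes), with Col1a1 at 18.4 and 26.8 CPM, against 139, 147, 58.3 and 133 (-2.23 ± 0.35). One of these 4 controls is the WT library with few jejunum markers. In jejunum smooth muscle and pericyte markers fell for 5 of 7 genes (501 to 800.4 CPM, against 1623 to 2799), fibroblast markers for 3 of 6 (528 to 614 CPM, against 959.8 to 1689) and endothelial markers for 1 of 5 (137 to 150.2 CPM, against 198 to 496). The 3 jejunum markers lay higher, with sums of 8245.5 to 9110 CPM with APAP, against 143 to 4743 in the controls. Their median log2 was 2.35, and 0 of the 3 were called. The lowest of these control sums is that of the WT library with few jejunum markers. The chaperone Serpinh1 fell in ileum (-2.02 ± 0.27, adjusted p = 3.21e-07), as did Pcolce (-1.76 ± 0.55), Mmp9 (-1.67 ± 0.38) and the lysyl oxidase Loxl1 (-1.49 ± 0.50). In ileum fibroblast markers fell for 6 of 6 genes, with sums of 806 to 928 CPM with APAP and 1019 to 1769 in the controls, and smooth muscle and pericyte markers for 1 of 7 (2300.2 to 2940.4 CPM, against 3152 to 3897). The part of these cell types in the gut results was not tested.

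In set B, alendronate (a bisphosphonate) and olanzapine (an antipsychotic) lay at opposite ends in skin, and each was in the other's comparison group. With alendronate Col1a2 had 2479 and 4469 CPM, against 3705 to 37404 (median 10613) CPM in the 8 libraries of the other drugs (-1.98 ± 0.56, SE, edgeR adjusted p = 0.0459), and the ranges overlapped. Col4a2 had 23.5 and 37.9 CPM, against 46.7 to 103 (median 85.4) (-1.37 ± 0.21), with no overlap. Col17a1 was the gene that rose, 804 and 675 CPM against 279.5 to 467 (median 417) (0.86 ± 0.18). In all 12 of 27 fell and 1 rose, beside 3.26% and 2.33% of all genes. The median log2 over the 27 was -0.74, against -0.00027 over all genes.

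With olanzapine Col14a1 had 123 and 80.6 CPM, against 1.57 to 64.4 (median 10.2) in the other drugs (2.79 ± 0.42, adjusted p = 0.000165). Col1a2 had 37404 and 25451 CPM, against 2479 to 25531 (median 6899) (2.12 ± 0.43), and Col3a1 12177 and 8969, against 1039 to 9651 (median 2493) (1.95 ± 0.39). The upper ends of the other drugs reached the olanzapine levels for both, and for Col14a1 they did not. Olanzapine had 12 of 27 higher and 1 lower, Col7a1 (-0.85 ± 0.26), beside 6.95% and 3.42% of all genes, with a median log2 of 0.57, against 0.01 over all genes. The direct contrast of alendronate with olanzapine, added after the data had been seen, gave 3 genes higher and 13 lower with alendronate of 27 (beside 11.0%), with Col14a1 at -4.35 ± 0.72 and Col17a1 at 0.76 ± 0.24. The 2 drugs were contrasted because they lay at opposite ends in these same libraries, so this contrast is no separate support.

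These set B calls rested on few libraries. Without alendronate replicate 1 no alendronate gene was called and without replicate 2 there were 4, and without olanzapine replicate 1 only Col14a1 was called with olanzapine. Markers of several cell types moved in these skins. Adipocyte markers fell for 4 of 5 genes with alendronate (48.6 to 213 CPM, against 146 to 2323) and rose for 4 of 5 with olanzapine (1814 to 2135 CPM, against 48.6 to 2323). Fibroblast markers fell for 5 of 7 with alendronate (2056 to 2380.3 CPM, against 2931 to 8999) and rose for 5 of 7 with olanzapine (7897 to 8091 CPM, against 2056 to 8999). Basal keratinocyte markers went the other way, with 4 of 5 lower with olanzapine (4835 to 5195 CPM, against 5507 to 13227) and 1 of 5 higher with alendronate (9875 to 11792 CPM, against 4835 to 13227). With olanzapine skin markers fell for 2 of 3, skeletal muscle markers rose for 3 of 5 (11552 to 11951 CPM, against 466 to 15502) and leukocyte markers for 2 of 3 (343 to 354 CPM, against 90.3 to 327). Of the crosslinking genes, 3 of 4 fell with alendronate and 4 of 4 rose with olanzapine, with Lox at -2.30 ± 0.66 and 1.90 ± 0.43. The part of these cell types was not tested.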

How the data were processed

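Per the labels' protocols, RNA was taken with Trizol from flash-frozen tissue and made into QuantSeq 3′ libraries. Per the submitters' processing notes, bcl2fastq 2.17, TopHat2 2.1.1 and HTSeq 0.9.1 were used with mm10; annotation and strand settings are not given in the sources used here. The authors deposited raw counts per gene, 1 table per tissue, used as deposited. Tests were run in R 4.3.3 with edgeR 4.0.16: filterByExpr (minimum count 10), TMM, all 18 groups of a tissue in 1 quasi-likelihood fit, and Benjamini-Hochberg adjustment over all genes of a comparison at 0.05. SE is the log2 fold change divided by the square root of F. A call is an adjusted p under 0.05. Alternatives used RLE scaling, no filter, a replicate block, DESeq2 1.42.0, another comparison group and left-out libraries. Tissue differences came from joint fits. On simulated teriparatide skull counts (10041 genes) the test recovered 46% of 100 genes changed 2-fold and 81% of 100 changed 4-fold, with 2 false calls. Labels do not say that replicates are separate mice, so p-values measure the spread between libraries, which may be technical. The members, gene lists, comparisons and tests were chosen with earlier results of these data known. Named genes were, per class, those with the highest WT levels, and per drug and tissue the called collagens (up to 10 per direction), up to 4 highest that were not called, and up to 6 called partners by fold change. The 8 pairs described in depth were 4 chosen by drug and tissue and the 4 others with most collagens called against both comparison groups. At most 2 of these others could share a tissue or a drug. For set B drugs both comparison groups were the same other 4 drugs, so the alendronate and olanzapine pairs passed only a single comparison. Figures were drawn with matplotlib 3.10.9. Reads shared by overlapping Col4a1 and Col4a2 ends could not be told apart without the strand setting, though 3′ tags lie at the opposite ends of these genes. Protein sequences were not used here.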

Additional observations from a re-analysis of the deposited data

Results flagged for a closer look

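For 11 collagen genes the cisplatin response was called in both ileum and skin with opposite signs. The difference of the 2 responses (ileum minus skin) also passed in a joint fit of the same cisplatin and CMCTween libraries. It was largest for the type I and III chains, at 6.59 for Col1a1, 6.04 for Col1a2 and 6.07 for Col3a1 on the log2 scale. The type V chains were at 4.23 (Col5a1) and 3.33 (Col5a2), and the type VI chains at 3.89 (Col6a1), 4.62 (Col6a2) and 3.92 (Col6a3). Col18a1 was at 3.59, Col16a1 at 2.90 and Col4a2, of basement membranes, at 2.097. Adjusted p in the joint edgeR fit ran from 4.21e-08 for Col6a2 to 0.00461 for Col4a2. The genes were picked by opposite calls in these same libraries, so passing was nearly fixed beforehand and is no separate support. Both tissues used libraries set apart in the report: in ileum 1 CMCTween library with few ileum markers, and in skin a CMCTween pair that differed more than 2-fold in Col1a1. Col4a2 lost its skin call without CMCTween replicate 3 (log2 fold change -0.66), cisplatin replicate 1 (-0.65) or cisplatin replicate 3 (-0.70). Col5a2 lost its skin call without CMCTween replicate 4 (-1.48) or cisplatin replicate 3 (-1.55).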

How the results depend on the processing

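Of 1394 values of single genes under alternatives, 1178 kept their direction and their side of the threshold, 174 kept the direction but fell short of the threshold, 31 passed it and 11 reversed. All 11 belong to genes that were not called, and none passed on the other side; the cause was not tested. Against all other groups of the set, Col17a1 with cisplatin in skin was -0.39 (in place of 0.27) and Col16a1 with teriparatide in skull -0.22 (in place of 0.11). With 1 library left out, values ran from -0.081 to 0.55 for Col17a1 with cisplatin in skin, -0.10 to 0.33 for Col16a1 and -0.34 to 0.089 for Col3a1 with teriparatide in skull, -0.54 to 0.020 for Col23a1 with APAP in ileum, and -0.17 to 0.53 for Col14a1 and -0.099 to 1.21 for Col23a1 with cisplatin in ileum. Calls in WT tissues ran from 567 to 612 against 575, with the higher figure from column sums without TMM, and 8 of 48 WT libraries were left out in turn (skull, skin, eye and testis), the others not being run. Without the filter on low counts, Sucrose against WT had 40 calls (25 with it) and set B 135 (83 with it). DESeq2 gave 11 for Sucrose against WT, and leaving out 1 replicate of Sucrose or WT gave 5 to 13. In set C the split of higher to lower was 180 to 179 without the filter, 108 to 105 with the block and 182 to 163 against all other groups. Between groups within a tissue, replicate numbers showed little pairing by the median. For groups of a set sharing 2 numbers, the median correlation of deviations was 0.015, 0.035 and 0.0089 in sets A, B and C. Single correlations ran from -0.54 to 0.31, -0.17 to 0.25 and -0.45 to 0.70, and were over 0.1 in 12 of 70, 26 of 144 and 33 of 200 pairs. Whether a number marks the same mouse in different tissues was not tested. With the replicate number as a block, teriparatide in skull had 0 calls (8 without), alendronate in skin 6 (13 without) and Sucrose against WT 14, and no other count moved by over 1.5 times. Against all other groups of its set, cisplatin in ileum had 22 calls (14 with CMCTween). Leaving out 1 library gave 0 to 7 calls for teriparatide in skull (8 with all), 9 to 16 for Dox in skin (16), 6 to 13 for APAP in ileum (14), 0 to 16 for alendronate in skin (13) and 1 to 14 for olanzapine in skin (13), and 11 to 15, 14 to 15 and 6 to 10 for cisplatin in skin, ileum and kidney. Fewer libraries were fitted in each of these, and other causes were not tested. Depth limits low genes: at 451154 counts, 1 count is 2.22 CPM.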

Other observations

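Eye gave many collagen calls in set C. With EMPA 12 of 34 tested genes rose and none fell (beside 3.49% and 3.01% of all genes), and with aripiprazole, an antipsychotic, 11 rose and none fell (2.11% and 0.713%). DESeq2 called 5 higher with EMPA and 6 with aripiprazole and none lower, and at an unadjusted p under 0.05 edgeR had 0 and 2 lower. Col1a1 had 926 and 717 CPM with EMPA and 565 and 689.8 with aripiprazole, against 142 and 135 in the CMCTween eyes. Clozapine, Repatha and teriparatide had 9, 7 and 9 eye genes called higher, and all 5 drugs were set against those same 2 CMCTween libraries. Against the mean of all other groups of the set, the log2 fold change of Col1a1 was 1.49 with EMPA and 0.996 with aripiprazole, in place of 2.78 and 2.34. Fibroblast markers summed to 2038 to 2176 CPM with EMPA, 1516 to 2179.9 with aripiprazole and 685 to 709 in the CMCTween eyes.

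Olanzapine in stomach had 10 of 27 collagen genes higher and none lower (beside 7.66% and 7.26% of all genes). Col17a1, of hemidesmosomes, had 55.1 and 49.7 CPM, against 12.6 to 31.5 (median 15.5) in the other drugs of the set (1.49 ± 0.30, edgeR adjusted p = 0.000335). Its replicate 2 there is the stomach library with few stomach markers. Smooth muscle and pericyte markers rose for 4 of 7 genes (7220.3 to 14271 CPM, against 4245 to 10626), basal keratinocyte markers for 2 of 5 (499.6 to 813 CPM, against 335 to 560.2) and fibroblast markers for 2 of 7 (1468 to 1879.7 CPM, against 1308 to 1974), and their part in the result was not tested. Risedronate, a bisphosphonate, had 7 of 24 genes higher in thyroid gland (beside 0.540% of all genes), with Col3a1 at 1860.3 and 549 CPM, against 156 to 404 (median 244) (2.28 ± 0.36), and its 2 libraries differed more than 3-fold. Left-out libraries were not run for these pairs.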
